A study of Macaca mulatta with 24 samples.

Results

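Parvocellular layers 5 and 6 are the 2 dorsal (outer) layers of the macaque lateral geniculate nucleus (LGN), and the arrays described here are those that GEO's titles give as layer 5 or layer 6. They number 8 of the 24 arrays of the series, 4 from deprived and 4 from nondeprived layers. The study asked which transcripts differ in LGN layers that receive the input of an eye deprived of vision from birth. Layers were cut from toluidine blue stained sections by laser capture microdissection, 6 to 10 sections were pooled for each layer, and the RNA was amplified in 2 rounds and hybridised to the Affymetrix Rhesus Macaque Genome Array. One monkey wore an opaque contact lens over the left eye for 2 months and the other had the left lids closed by tarsorrhaphy for 4 months, and both LGNs of each were used, so that age and duration cannot be told apart from the animal or from the way the eye was closed.

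The deprived layers were layer 5 of the LGN ipsilateral to the deprived eye and layer 6 of the contralateral LGN, at 2 and at 4 months. The nondeprived layers were layer 6 of the ipsilateral and layer 5 of the contralateral LGN of the same animals. Each LGN therefore gave 1 deprived and 1 nondeprived layer, each layer number occurred in 2 deprived and 2 nondeprived arrays, and the nondeprived layers were driven by the open eye of a deprived animal and are not layers of a normal one. Because the layers of 2 animals were sampled, p-values describe variation among layers and LGNs, not variation among animals.

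The LGN relays retinal signals to the visual cortex, and each of its layers is driven by 1 eye only. Parvocellular relay cells are small neurons that carry color and fine detail, and they lie beside local GABAergic neurons, astrocytes, oligodendrocytes and microglia. Monocular deprivation in infancy shrinks the relay cells of the layers that the closed eye drives. Koniocellular zones between the layers were left out of the captured tissue by the study's design.

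Most of the 8 arrays were alike in breadth. Between 40.7% and 46.5% of the probe sets in deprived layers, and between 40.6% and 42.6% in nondeprived layers, had a signal of 100 or more. The deprived layer 6 of the contralateral 2-month LGN was the broadest, at 46.5%, the next array standing at 43.5%. It also had the highest median signal, 84.9 against at most 73.3 in the others, and the lowest mean correlation with the other 23 arrays, 0.898. The ratio of 3′ to 5′ signal of GAPDH, a measure of how complete the amplified RNA was, had a median of 5.70 (range 2.65 to 7.35) in deprived layers and 4.37 (range 2.95 to 5.65) in nondeprived layers. A bright gene among the relay cell and thalamic markers is given here. TCF7L2, a transcription factor of thalamic neurons, averaged 35679 ± 3951 in deprived and 28446 ± 4121 in nondeprived layers (signal, SD, n = 4 each).

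A different array stood apart from the other nondeprived ones, though in chosen genes only. The nondeprived layer 5 of the contralateral 4-month LGN lay within the range of the deprived arrays for 8 of the 30 genes named below by rank, against 1, 2 and 4 of them for the other 3 nondeprived arrays. Over all 37623 probe sets tested it lay within that range for 26312, against 24599 to 25923 for the other 3, and its mean correlation with the other 23 arrays, 0.919, was among the highest of the 8. The results are given both with all 8 arrays and without it. Because it was singled out for reading toward the deprived arrays, larger fold changes and added calls without it follow in part from that choice and are given as a description. Values per array are given below in the order ipsilateral and contralateral LGN at 2 months, then ipsilateral and contralateral LGN at 4 months, so that this array is always the last of the nondeprived values. Signals are the deposited values, on 1 scale for all arrays, and fold changes are on the log2 scale, deprived over nondeprived, as the mean of the 4 within-LGN differences.

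A total of 7 transcripts differed on average between deprived and nondeprived outer layers by the limma test, 2 of them higher and 5 lower. The lower ones included FGF11, a member of the intracellular fibroblast growth factors that bind sodium channels, and genes of clathrin coats and of ceramide breakdown, and the higher ones were a nuclear envelope protein and a stathmin. Out of 37623 probe sets tested, 7 passed an adjusted p of 0.05, which is 0.0186% of them (0.00532% higher and 0.0133% lower), and 3438 had an unadjusted p under 0.05, of which 1862 were higher. The count depended on the fit. It was 1 with a block for each LGN and layer pair, 1 with the layer number as a covariate and 0 with the 8 arrays of layers 5 and 6 alone. Without the array that stood apart 28 passed (0.0744%), 18 higher and 10 lower, and all 7 were among them.

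FGF11 fell in the deprived layers. Its signals were 494, 323, 180.2 and 329 in deprived layers, against 1180.1, 1312, 1028 and 842 in nondeprived layers. No deprived value reached the lowest nondeprived one, and the log2 fold change was -1.79 (SE 0.22) with an adjusted p of 0.00780 (limma). It kept the call when any of the 4 deprived arrays or the last nondeprived array was left out, and lost it without any of the other 3 nondeprived arrays, the adjusted p lying between 0.00145 and 0.0980 over the 8 fits.

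SUN1 encodes a protein of the inner nuclear membrane that joins the nucleus to the cytoskeleton. It gave 4999.7, 6760.5, 4939 and 4729.9 in deprived layers, against 2149, 2568, 2243 and 3489.6 in nondeprived layers. The groups did not overlap, the contralateral LGN at 4 months had the narrowest gap, and the log2 fold change was 1.05 (SE 0.15) with an adjusted p of 0.0405 (limma).

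STMN4, a neuronal stathmin that acts on microtubules, gave 6315, 8402, 9531 and 8352 in deprived layers, against 3236, 3447, 4524 and 5358 in nondeprived layers. All deprived values were above all nondeprived values, with a log2 fold change of 0.99 (SE 0.15, limma adjusted p = 0.0477). Of 12 measured genes in a list of neurofilaments, tubulins and microtubule proteins, STMN4 was the only one past the threshold, and the list's median was 0.08 (0.04 after quantile normalization and -0.01 at the same median), beside 0.03 and 0.0186% called over all probe sets tested.

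ASAH2, the neutral ceramidase, was a dim transcript, with 133, 54.8, 8.61 and 83.1 in deprived layers, against 486, 357, 184 and 192 in nondeprived layers. The groups did not overlap, and 3 of the deprived signals were under 100, so that the log2 fold change of -2.55 (SE 0.39) rests on values near the bottom of the scale (limma adjusted p = 0.0477).

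Both clathrin genes fell, although for both the groups overlapped. EPN1, an epsin of clathrin-mediated endocytosis, gave 7939, 4482, 1848 and 2150.4 in deprived layers, against 10438, 11485, 6559.6 and 6181 in nondeprived layers. The deprived layer of the ipsilateral 2-month LGN was brighter than both nondeprived layers at 4 months, so the groups overlapped, while within every LGN the deprived layer was the dimmer (log2 fold change -1.28, SE 0.20, limma adjusted p = 0.0477). The 3 other measured probe sets of EPN1 differed among themselves. One gave 169, 183, 96.9 and 160.2 in deprived layers, against 464, 641, 250.0 and 253 in nondeprived layers, without overlap, at -1.32 (SE 0.33) on the log2 scale and an adjusted p of 0.225 (limma). The brightest of the 3, with a mean signal of 1795 in deprived and 1825 in nondeprived layers, stood at -0.06 (SE 0.30), and a dim one had the opposite sign, at 0.40 (SE 0.69).

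AP1S2, a small subunit of the AP-1 clathrin adaptor, gave 1942, 1382, 2329 and 2688 in deprived layers, against 3153, 2650.1, 4665 and 4169 in nondeprived layers. Again every LGN had the lower value in its deprived layer while the groups overlapped, the log2 fold change being -0.82 (SE 0.13, limma adjusted p = 0.0499). The remaining transcript, probe set MmugDNA.594.1.S1_at, has no symbol in the platform table and fell by 1.21 on the log2 scale (SE 0.20, limma adjusted p = 0.0499).

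**Figure D1:**
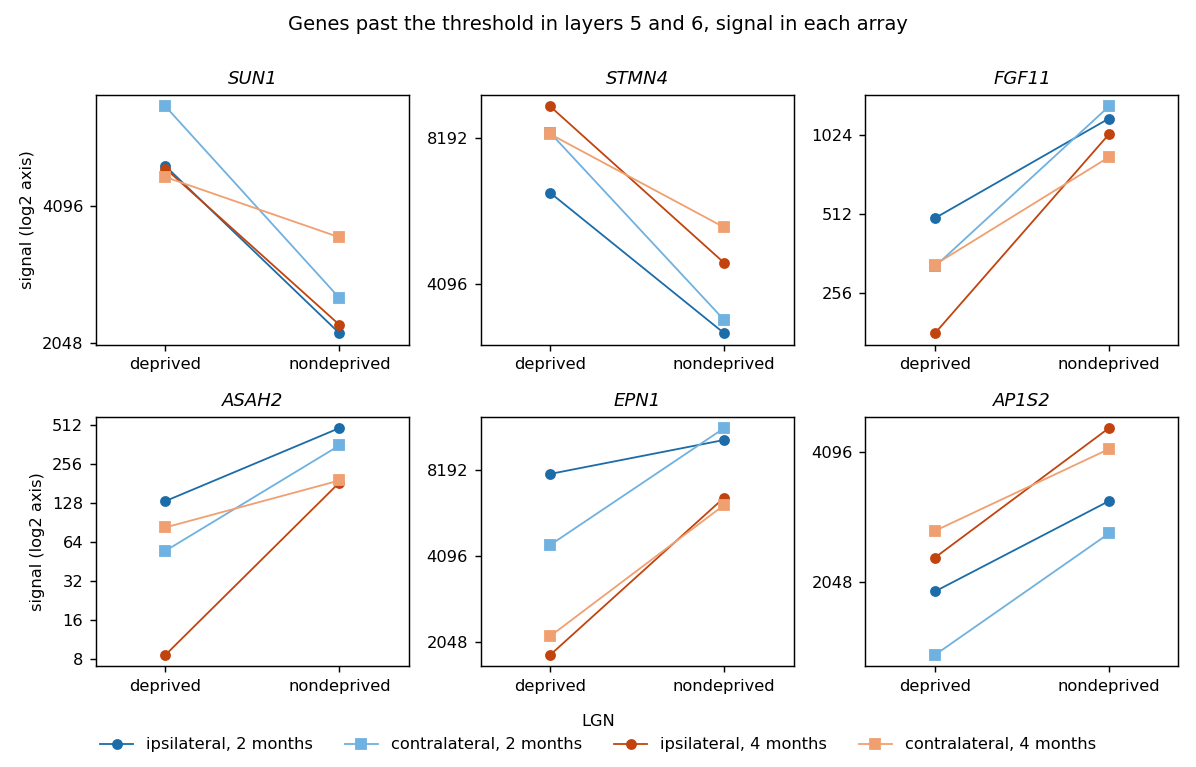
Signal of the 6 named genes past the threshold in each array of layers 5 and 6 (vertical log2 axis), deprived layers at the left and nondeprived layers at the right of each panel, with a line for each LGN. SUN1 and STMN4 lie higher and FGF11, ASAH2, EPN1 and AP1S2 lower in the deprived layer of all 4 LGNs, and the groups overlap for EPN1 and AP1S2.

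For the other calls most single arrays mattered. SUN1 kept its call in 2 of the 8 fits that left out 1 array (adjusted p between 0.00716 and 0.285), ASAH2 in 2 (0.0149 to 0.291), EPN1 in 2 (0.00132 to 0.378), STMN4 in 1 (0.0262 to 0.321), AP1S2 in 1 (0.0469 to 0.398) and the unnamed probe set in 2 (0.0204 to 0.398). All 7 kept the call without the array that stood apart, and all lost it without any one of the other nondeprived arrays. Directions did not turn in any of these fits. With no LGN block 0 transcripts passed, and with the GAPDH ratio as a covariate, chosen after seeing the data, 1 passed.

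Other probe sets of the same genes did not always read alike. FGF11 and ASAH2 had 1 other measured probe set each, with the same sign, and STMN4 had no other. That of FGF11 stood at -0.54 (SE 0.33), with mean signals of 89.7 in deprived and 125 in nondeprived layers. That of ASAH2 stood at -0.68 (SE 0.55), with means of 30.1 and 43.5, and on both the groups overlapped. SUN1 and AP1S2 had 2 each, 1 with the same sign (0.61, SE 0.17, for SUN1 and -0.59, SE 0.14, for AP1S2) and 1 with the opposite sign (-0.11, SE 0.51, for SUN1 and 0.04, SE 0.34, for AP1S2). Among the 30 genes named by rank 23 had other measured probe sets. All of these had the sign of the gene's named probe set in 16 genes, some in 4 and none in 3, NAA60, GID8 and ODAD1. Of the 47 other probe sets 39 had the same sign and 8 the opposite one. A shared sign could go with a value near 0, as for PPP3CB below, and none of the 47 passed the threshold.

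Several large differences passed the threshold only without the array that stood apart, a set that the choice of this array fixes. ALDH1A2, an enzyme that makes retinoic acid, gave 153, 1001, 1004 and 470.5 in deprived layers, against 28.4, 55.0, 9.17 and 496 in nondeprived layers. The other 3 LGNs differed widely, while in the contralateral LGN at 4 months the nondeprived layer was the brighter by a small margin. The log2 fold change was 3.33 (SE 0.75) with an adjusted p of 0.177, and without that array it was 4.43 (SE 0.57) with 0.00716 (limma). RARA, a retinoic acid receptor, was lower in all deprived arrays and did not pass the threshold (-0.45, SE 0.14, limma adjusted p = 0.330).

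TAFA1, a secreted chemokine-like protein of the brain, had a like pattern. Its signals were 224, 886, 1250.4 and 427 in deprived layers, against 5.89, 94.0, 59.7 and 625 in nondeprived layers. Only the contralateral LGN at 4 months had the higher value in the nondeprived layer, and the log2 fold change was 3.08 (SE 0.73) with all arrays (adjusted p = 0.190) and 4.13 (SE 0.57) without the last one (adjusted p = 0.00993, limma). The nondeprived signals of both genes outside that array were all under 100, where the size of a ratio is poorly measured.

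PIK3R1, the regulatory subunit of PI3 kinase, gave 1099, 1436, 3583 and 2768 in deprived layers, against 599, 373, 1036 and 1859 in nondeprived layers. The groups overlapped only through the last nondeprived array, and the log2 fold change was 1.30 (SE 0.25) with all arrays (adjusted p = 0.109) and 1.51 (SE 0.26) without that array (adjusted p = 0.0469, limma). All 3 other measured probe sets of PIK3R1 had the same direction, at 0.55 to 1.37 on the log2 scale, and 2 of them overlapped between the groups.

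S100A6, a calcium-binding protein, gave 383, 576, 202 and 227 in deprived layers, against 79.9, 184, 103 and 209 in nondeprived layers. It was higher in the deprived layer of all 4 LGNs, most in the animal of 2 months, with a log2 fold change of 1.25 (SE 0.33, limma adjusted p = 0.239, and 0.0374 without the last array). CEBPA, a leucine zipper transcription factor, did not overlap between the groups, at 515, 757, 707 and 466 in deprived layers, against 233, 268, 319.7 and 426 in nondeprived layers. It was higher by 0.98 (SE 0.22) on the log2 scale, with an adjusted p of 0.168 with all arrays and 0.0499 without the last one (limma).

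**Figure D2:**
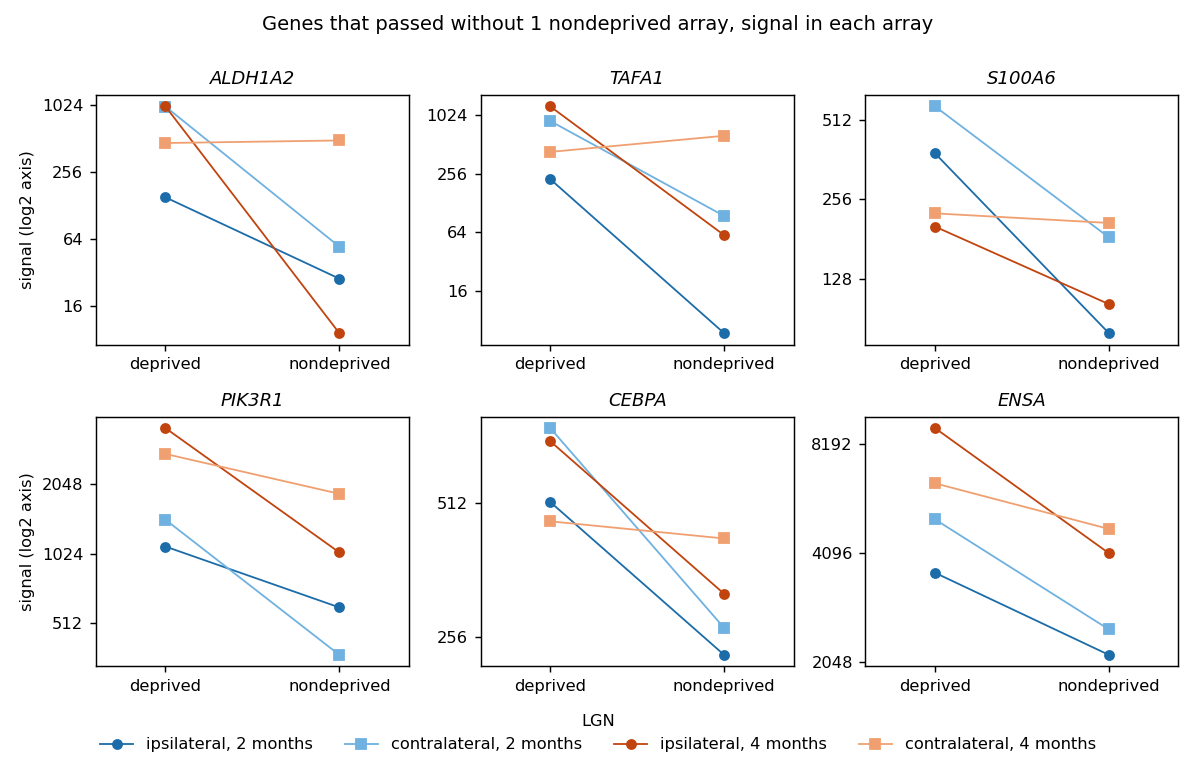
Signal in each array of layers 5 and 6 (vertical log2 axis) for 6 genes that passed the threshold only without the nondeprived layer 5 of the contralateral 4-month LGN, deprived layers at the left of each panel and a line for each LGN. In ALDH1A2 and TAFA1 the line of that LGN runs level or upward to the right while the other 3 fall steeply.

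Beyond these genes, the named set was filled to 15 genes in each direction by the smallest p among transcripts with 1 direction in all 4 LGNs, and the added genes did not pass the threshold. Among the 15 higher genes 9 did not overlap between the groups (2.19% of all probe sets did so), and 12 without the array that stood apart. Among the 15 lower genes 10 did not overlap (2.03% of all probe sets), and 12 without it. In either direction 4.22% of all probe sets did not overlap, and 7.51% without that array. The counts of named genes follow from the choice by p and are given as a description.

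The higher genes are given here by what is known of them. CEBPA and 3 others act in transcription and chromatin, namely KLF6, a zinc finger factor, MAML3, a coactivator of Notch, and NASP, a histone chaperone. KLF6 gave 4447, 5975, 4634 and 3429 in deprived layers, against 3014, 2609, 3068 and 2699.8 in nondeprived layers, without overlap, at 0.67 (SE 0.15) on the log2 scale. NASP gave 1869, 2006, 2346 and 1869.7 in deprived layers, against 1302, 1261, 1473 and 1388 in nondeprived layers, the difference being smaller, at 0.57 (SE 0.13), and the groups again did not overlap. Their limma adjusted p-values were 0.168 and 0.178.

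NAA60, an acetyltransferase of protein ends, GID8, a subunit of a ubiquitin ligase, and ENSA, an inhibitor of phosphatase 2A, were also among the higher genes. NAA60 had narrow groups, 654, 607, 705 and 602 in deprived layers, against 373, 384, 389 and 362 in nondeprived layers, and its log2 fold change was 0.77 (SE 0.18, limma adjusted p = 0.178). The only other measured probe set of NAA60 was brighter and stood at -0.08 (SE 0.17), and both others of GID8 were at -0.11 (SE 0.17) and -0.03 (SE 0.25), against 0.72 (SE 0.16) for the named one. ENSA stood at 3613, 5075, 9073 and 6385 in deprived layers, against 2142, 2519, 4092 and 4775 in nondeprived layers, overlapping between the animals, and its log2 fold change was 0.83 (SE 0.14, limma adjusted p = 0.0666, and 0.0390 without the last array). The other higher genes, CD63, a tetraspanin of late endosomes, DYNC1LI2, a chain of dynein, SAP30BP, TMEM150C and TMEM132E, had log2 fold changes between 0.63 and 2.87. The 2.87 was that of TMEM150C on a dim probe set, with mean signals of 106 in deprived and 19.6 in nondeprived layers. Its brighter probe set, with means of 1258 and 911, stood at 0.45 (SE 0.20). The other probe sets of SAP30BP stood at 0.08 (SE 0.15) and -0.08 (SE 0.27).

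Among the lower genes, 2 act in calcium signaling and energy metabolism. PPP3CB, a catalytic subunit of calcineurin, gave 1803, 1306, 1648 and 1626 in deprived layers, against 2665, 2683, 3579.5 and 2801 in nondeprived layers. On this probe set the groups were well apart, at -0.88 (SE 0.15) on the log2 scale and an adjusted p of 0.0666 (limma). The 2 other measured probe sets of PPP3CB were brighter and overlapped between the groups, at -0.06 (SE 0.12) and -0.05 (SE 0.18). OPA1, which fuses mitochondrial inner membranes, gave 1491, 1053, 822 and 662 in deprived layers, against 2480.3, 2739.7, 1482 and 1084 in nondeprived layers, overlapping between animals while lower in the deprived layer of each LGN (log2 fold change -0.92, SE 0.19, limma adjusted p = 0.119).

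Cell surface enzymes and receptors were also among them. MME, the peptidase neprilysin, gave 103, 62.9, 117 and 189 in deprived layers, against 238, 461, 409 and 538 in nondeprived layers, without overlap and at -1.85 (SE 0.36) on the log2 scale. Both other measured probe sets of MME overlapped between the groups, a brighter one at -0.22 (SE 0.17) and a dim one at -0.49 (SE 0.52). ENTPD3, an enzyme that splits extracellular nucleotides, gave 646, 518, 623 and 627 in deprived layers, against 943, 1084, 1167 and 998 in nondeprived layers, at -0.80 (SE 0.16). FLT3, a receptor tyrosine kinase, stood at -0.91 (SE 0.18), and their limma adjusted p-values were 0.109, 0.116 and 0.107.

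MED8, a Mediator subunit, was read by a pair of probe sets with the same direction and no overlap. The first gave 1222, 1213, 1025 and 1316 in deprived layers, against 1984, 2078, 2041 and 1836 in nondeprived layers (-0.74, SE 0.14), and the second 1159, 1472, 1288 and 1199.9 in deprived layers, against 1993, 2013, 1957 and 1614 in nondeprived layers (-0.57, SE 0.14). Neither passed the threshold (limma adjusted p = 0.109 and 0.199). ODAD1, ARHGAP9, C6H5orf22, LOC699013 and PDCD6IP, whose product ALIX acts in membrane budding, made up the rest, with log2 fold changes between -1.01 and -0.68.

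A fold rule was adapted from the study's methods, with their mean fold of at least 1.7. The study also required increase or decrease calls of its software, over all parvocellular layers. Here the sign of the within-LGN ratio stood in place of those calls, with all 4 LGNs in the same direction. By this adapted rule 1476 probe sets were counted (3.92%), 962 higher (2.56%) and 514 lower (1.37%), which is not a count by the study's own rule. Of these, 997 had a mean signal under 100 in the brighter group. Scaling the arrays to each other moved the split, to 777 higher and 652 lower after quantile normalization and to 701 higher and 808 lower after setting the arrays to the same median. All 7 transcripts past the limma threshold met the fold rule.

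Deprivation in layers 3 and 4, the inner parvocellular layers of the same LGNs, served as the comparison for what may be particular to the outer ones. No probe set passed the test of the difference between the 2 layer pairs (limma, smallest adjusted p = 0.965), and 1494 of 37623 had an unadjusted p under 0.05. Of the 15 higher genes 14 had the same direction in layers 3 and 4, with SAP30BP the exception, and all 15 lower genes did. Over all probe sets tested 55.8% had the same direction in both layer pairs. Among those with an unadjusted limma p under 0.05 in layers 5 and 6 it was 72.7%. The median log2 fold change of the 15 lower genes was -0.92 in layers 5 and 6 and -0.54 in layers 3 and 4. Since the genes were chosen on the outer layers, the smaller inner value is a description and not a contrast.

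FGF11 and PIK3R1 had close values in both layer pairs. FGF11 stood at -1.79 (SE 0.22) in layers 5 and 6 and -1.73 (SE 0.22) in layers 3 and 4, and PIK3R1 at 1.30 (SE 0.25) and 1.31 (SE 0.25). SAP30BP and AP1S2 differed most between the layer pairs relative to the error among the 30 genes. For SAP30BP, a nuclear protein, the outer layers gave 1.20 (SE 0.26) and the inner ones -0.22 (SE 0.26), a difference of 1.42 (SE 0.37). For AP1S2 the difference was -0.62 (SE 0.19), and neither passed after adjustment (limma adjusted p = 0.965 for each).

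**Figure D3:**
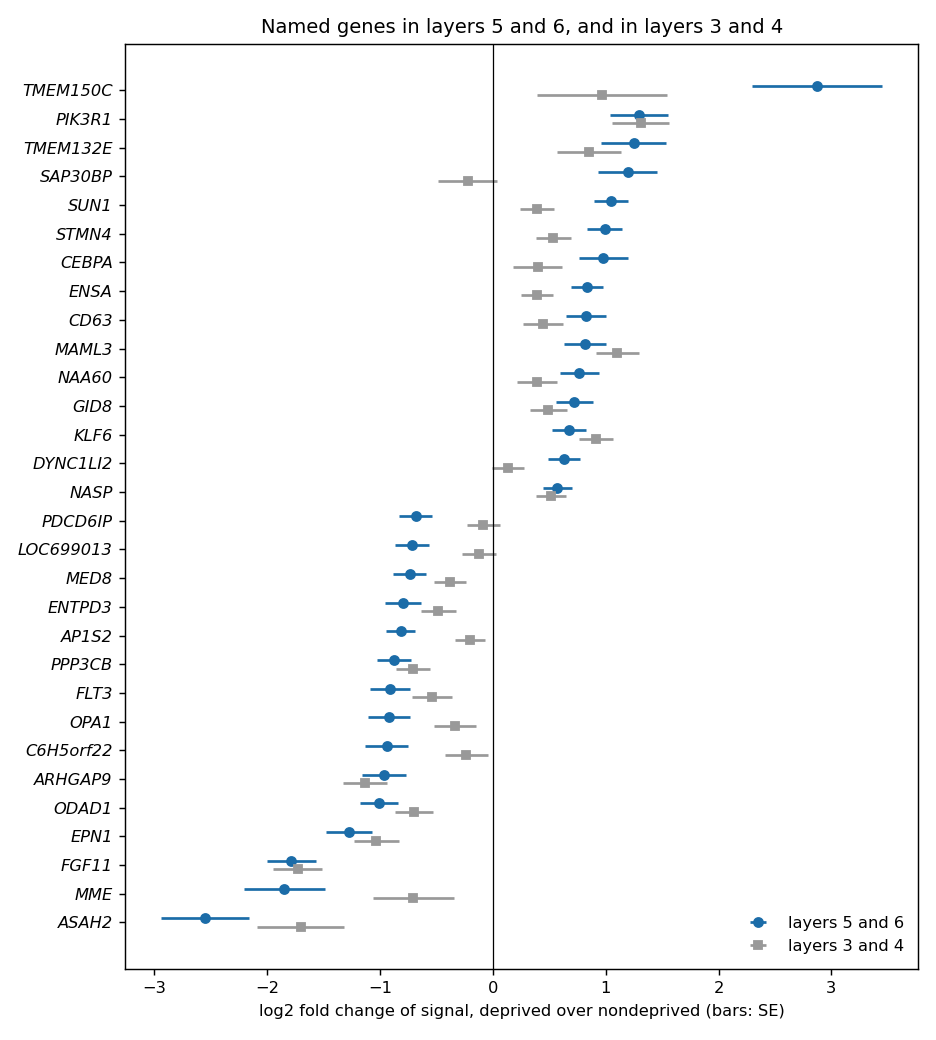
Log2 fold change of the 30 named genes, deprived over nondeprived, with bars of 1 SE, in layers 5 and 6 (circles) and in layers 3 and 4 (squares). All but SAP30BP lie on the same side of 0 in both layer pairs, FGF11 and PIK3R1 nearly coincide, and no difference between the layer pairs passed the test.

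Genes chosen on the inner layers alone were then read in the 8 outer arrays, which played no part in the choice though they come from the same 4 LGNs. The 50 higher and 50 lower probe sets with the smallest p in layers 3 and 4, a number set after the data had been seen, gave a score for each array, the mean log2 signal of the higher minus that of the lower ones. It was 0.30, 0.44, 1.11 and 0.61 in the deprived layers, against -1.12, -0.91, -1.05 and -0.27 in the nondeprived layers. The groups did not overlap, and the last nondeprived array was the one nearest to the deprived arrays.

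Of these 100 probe sets, 99 had the same direction in layers 5 and 6 as in layers 3 and 4, beside 55.8% of all probe sets tested. The 10 that passed in the inner layers alone gave -1.25, 0.81, 1.81 and 0.77 in deprived outer layers, against -3.58, -3.15, -3.18 and -0.87 in nondeprived outer layers. With these 10 the groups overlapped, since the last nondeprived array read above the deprived layer of the ipsilateral 2-month LGN.

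**Figure D4:**
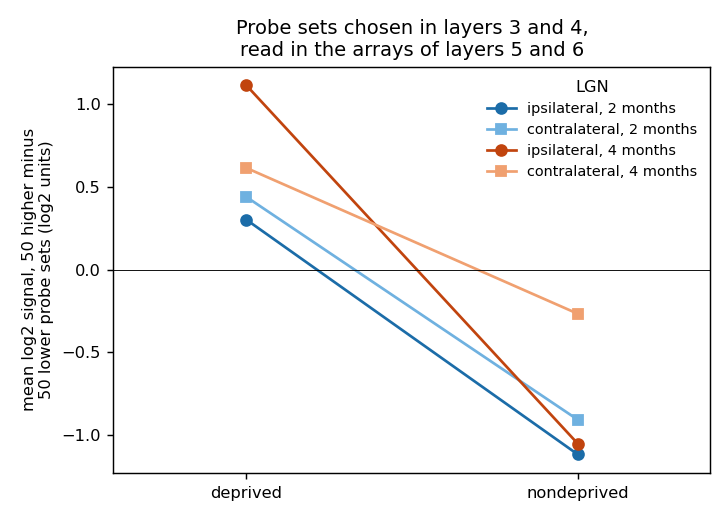
Score of the 100 probe sets chosen in layers 3 and 4 (mean log2 signal of the 50 higher minus the 50 lower, vertical axis, log2 units) in each array of layers 5 and 6, deprived at the left, with a line for each LGN. Deprived arrays lie between 0.30 and 1.11 and nondeprived arrays between -1.12 and -0.27.

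Between the animal of 4 months and that of 2 months, no probe set passed the test of the difference in the outer deprivation effect (0 of 37623 by limma, smallest adjusted p = 1.00, and 1259 at an unadjusted p under 0.05). FGF11 stood at -1.93 at 4 months and -1.64 at 2 months on the log2 scale, and ALDH1A2 at 6.77 in the ipsilateral and -0.08 in the contralateral LGN at 4 months, and at 2.43 in the ipsilateral and 4.18 in the contralateral LGN at 2 months. EPN1 had -1.68 at 4 months and -0.88 at 2 months, and S100A6 had 0.55 at 4 months and 1.95 at 2 months. Each month stands for 1 animal, and 2 LGNs carry each value.

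Gene lists were read by their counts and medians. In 32 lists with at least 5 measured genes, FGF11, EPN1 and STMN4 were the only members past the threshold, beside 0.0186% of all probe sets tested. Over all probe sets the median was 0.03 and 53.0% were positive, and in the contralateral LGN at 2 months alone the median was 0.17. Setting the arrays to the same median lowered every list by about 0.09. List medians that quantile normalization moved by over 1.5 times are given beside their value.

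Glial markers stood on the positive side. Of 13 astrocyte markers measured 12 were positive, with a median of 0.26, of 8 oligodendrocyte and myelin markers 7, with a median of 0.33 (0.18 after quantile normalization), and of 13 microglia markers 10, with a median of 0.30. In layers 3 and 4 the medians of these lists were also positive, at 0.20, 0.34 and 0.33. GFAP, the intermediate filament of astrocytes, gave 3691, 13218, 5735 and 7467 in deprived layers, against 2875, 2988, 3996 and 3764 in nondeprived layers. The deprived layer was higher in each LGN, above all in the contralateral one at 2 months, yet the spread was wide (log2 fold change 1.00, SE 0.32, limma adjusted p = 0.331).

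AGT, the angiotensinogen that astrocytes make, gave 5565, 7052, 3859 and 4003 in deprived layers, against 3608, 3013, 2409 and 2998 in nondeprived layers. The groups did not overlap (0.74, SE 0.18, limma adjusted p = 0.207). GLUL, the glutamine synthetase of astrocytes, was a bright transcript with little spread, at 23285, 23122, 23673 and 21839.9 in deprived layers, against 18965, 18422, 16653 and 19767 in nondeprived layers, also without overlap (0.32, SE 0.13, limma adjusted p = 0.446).

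The summed signal of the astrocyte markers was between 95471 and 127406 in deprived and between 89442 and 100199 in nondeprived layers, and that of the oligodendrocyte markers between 73405 and 92258 in deprived and between 62376 and 75038 in nondeprived layers. Both ranges overlapped between the groups. In tissue of mixed cells, fewer cells of a type and less RNA per cell cannot be told apart, and the part of these markers in the other results was not tested.

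Neuronal lists were divided. Of 7 general neuron markers 4 were positive, with a median of 0.02 that turned negative under both other scalings, -0.22 after quantile normalization and -0.07 at the same median. All 6 markers of GABAergic neurons were positive, with a median of 0.25, and 0.13 after quantile normalization, beside 0.32 in layers 3 and 4. Of 6 relay cell and thalamic markers 5 were positive, with a median of 0.25 that was 0.05 after quantile normalization, beside -0.30 in layers 3 and 4. The differences of these medians between the layer pairs were not tested. Endothelial and mural markers stood at -0.04 (-0.07 after quantile normalization), and 5 of 6 meningeal and fibroblast markers were positive, at 0.42 with summed signals between 3389 and 4692 in deprived and between 3432 and 4668 in nondeprived layers.

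Among genes of ion channels and transmitter release, FGF11 and EPN1 alone passed the test (0.0186% of all probe sets tested did). Of 11 genes of sodium channels and their partners 8 were positive, with a median of 0.31, and of 30 potassium channel genes 21, with a median of 0.21. SCN3B, a beta subunit of sodium channels, gave 1305, 1476, 2482 and 2890.1 in deprived layers, against 1048, 899, 533 and 1936 in nondeprived layers, the groups overlapping through the last nondeprived array (0.96, SE 0.28, limma adjusted p = 0.276).

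Of 18 genes of synaptic vesicles and transmitter release 11 were negative, with a median of -0.06 (-0.17 after quantile normalization). SYT4, a synaptotagmin, gave 12660.3, 11741, 17088 and 13132 in deprived layers, against 8169, 7803, 7539 and 10993 in nondeprived layers. VAMP1, a protein of synaptic vesicles, gave 1001, 1674, 956 and 984 in deprived layers, against 2521, 2022, 2473 and 1465 in nondeprived layers. SYT4 did not overlap and was higher by 0.66 (SE 0.16), VAMP1 overlapped and was lower in all LGNs, at -0.89 (SE 0.22), and neither passed (limma adjusted p = 0.190 and 0.205).

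In the list of neuropeptides, their processing and receptors no gene passed the threshold. CRHBP, which binds corticotropin-releasing hormone, gave 272, 138, 73.7 and 99.9 in deprived layers, against 352, 582, 329 and 289.5 in nondeprived layers. PCSK2, a convertase that cuts peptide precursors, gave 2627, 1079.7, 2293 and 2436 in deprived layers, against 3194, 2949, 4157 and 4016 in nondeprived layers. Neither gene overlapped between the groups, and the log2 fold changes were -1.54 (SE 0.33) and -0.83 (SE 0.18, limma adjusted p = 0.165 and 0.165).

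CRH itself, the hormone that CRHBP binds, gave 1904, 1918, 1789.6 and 1591 in deprived layers, against 1467, 1728, 1217 and 1249 in nondeprived layers. Read by 1 probe set, it had the larger value in the deprived layer of each LGN, but the groups overlapped and it did not pass the threshold (0.36, SE 0.16, limma adjusted p = 0.514). Of the 21 genes of this list 11 were positive and 10 negative, with a median of 0.03 (-0.07 after quantile normalization).

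Immediate early genes, which neurons switch on with activity, were mostly on the positive side, 13 of 19, with a median of 0.19. FOS had the opposite sign, with 1857, 1196, 418 and 485 in deprived layers, against 3466, 2487, 620.4 and 457 in nondeprived layers. Its signal was several times higher in the animal of 2 months on both sides, and the deprived layer was the lower in 3 of 4 LGNs (-0.61, SE 0.23, limma adjusted p = 0.403). KLF4 did not overlap between the groups and was higher by 0.84 (SE 0.27, limma adjusted p = 0.344).

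Oxidative phosphorylation genes were divided, 28 of 47 negative with a median of -0.05 (-0.13 after quantile normalization), beside -0.27 in layers 3 and 4. NDUFA9, a subunit of complex I, gave 3668, 5760.5, 4022 and 5119 in deprived layers, against 6448, 7051, 7382 and 5668 in nondeprived layers, lower in each LGN (-0.53, SE 0.18, limma adjusted p = 0.383). Glycolysis genes had a median of -0.04, and -0.09 after quantile normalization. Ribosomal protein genes had a median of 0.19, with 14 of 19 positive, and 0.10 after quantile normalization. The difference of these medians between the layer pairs was not tested.

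**Figure D5:**
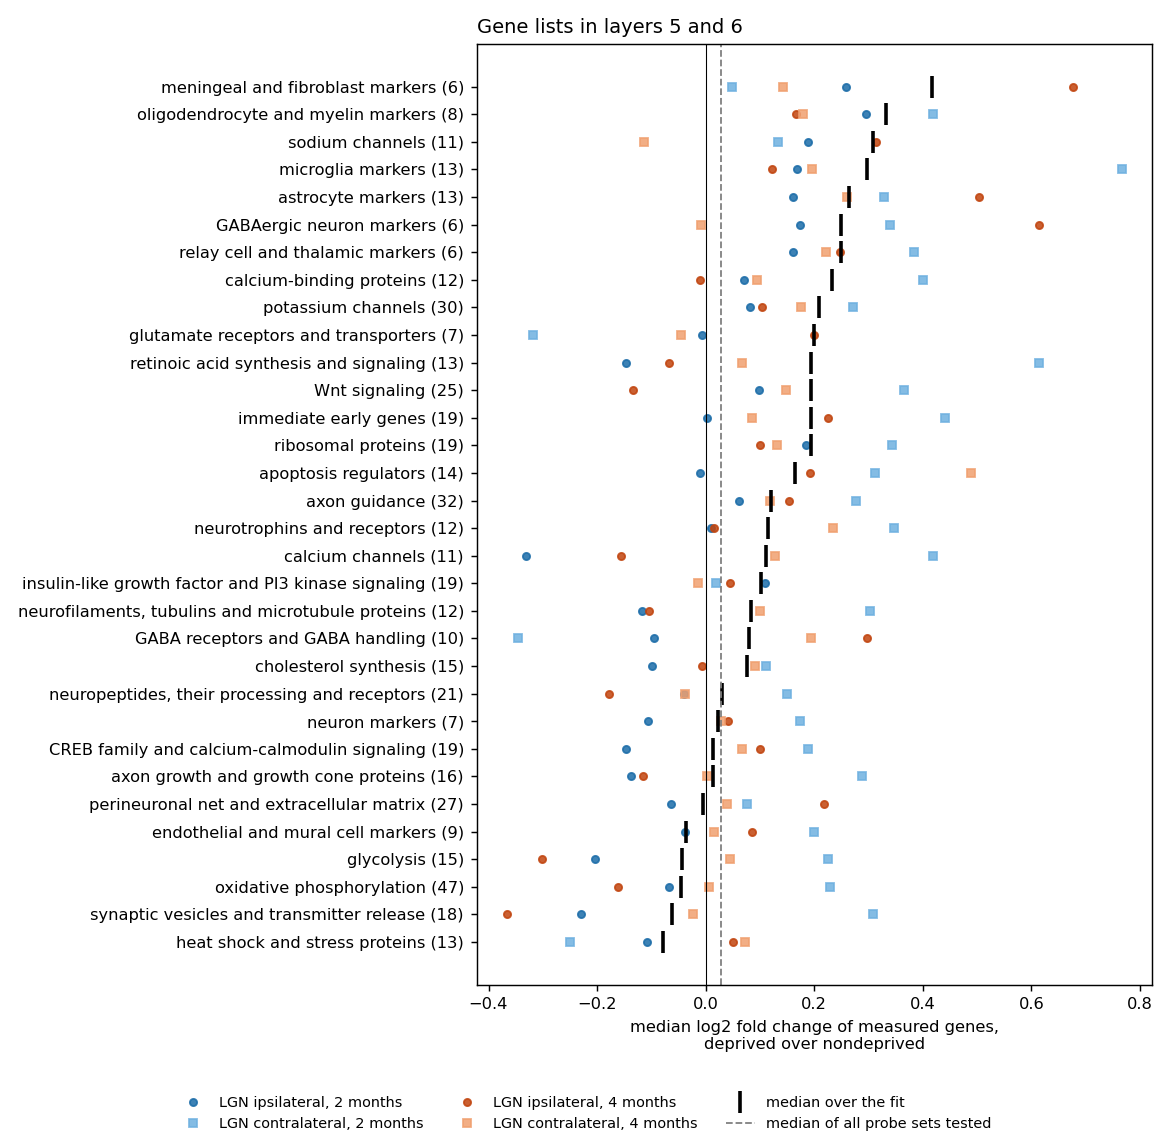
Median log2 fold change of the measured genes of each list (number in brackets), deprived over nondeprived in layers 5 and 6, with 1 point for each LGN, a black bar for the median over the fitted values and a dashed line at the median of all probe sets, 0.03. Glial and meningeal lists lie at 0.26 to 0.42, oxidative phosphorylation at -0.05, and the contralateral LGN at 2 months lies to the right in most lists.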

How the data were processed

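Rhesus macaque LGN layers were profiled on 24 Affymetrix arrays, of which 8 are of layers 5 and 6. The authors scanned the arrays and computed signals with Affymetrix GCOS, and deposited linear signal intensity values, each array scaled to a trimmed mean of 500.04 (2% trimmed from each end). The 2 rounds of amplification before hybridisation favour 3′ ends and can distort low signals. No depth applies to arrays, and their number limits the precision. Symbols came from the platform table, in which 24956 probe sets have 1 symbol, 361 several and 27449 no symbol.

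Signals under 1 were set to 1 and log2 transformed, 99 control probe sets were left out, and probe sets reaching 100 on at least 1 array were kept (37623). A linear model was fitted with limma 3.58.1 in R 4.3.3 (lmFit, eBayes with trend) to the 16 parvocellular arrays, with the LGN as a fixed block, layer pair, and deprivation within each layer pair. P-values were adjusted by Benjamini-Hochberg over all probe sets, with a threshold of 0.05, and fold changes of dim genes depend on the scale. Same-numbered samples come from the same LGN, and after removing group means their correlation was between 0.127 and 0.247. The mean correlation with the other LGNs, -0.0829 to -0.0406, is pushed below 0 by the removal of group means. It is therefore no separate evidence of pairing.

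Named genes are the 15 in each direction with a single symbol, first those past the threshold by size and then by smallest p, with 100 or more in the brighter group and 4 of 4 LGNs alike, 5 in each direction for each difference between effects, genes named in the study's text, and the 4 members of each list with the smallest p. ALDH1A2, TAFA1 and S100A6 were also picked for passing without 1 array. Of a gene's probe sets, lists use the brightest. Members and lists were chosen with earlier results of these data known. The alternatives were other scalings, low-signal rules, blocks, covariates, each array left out and each animal alone.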

Additional observations from a re-analysis of the deposited data

Results flagged for a closer look

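Among 73 genes and probe sets, read in 146 groups of 4 arrays, 12 groups held 1 array far from the other 3. The cut-off is one that about 1 group in 20 passes when its 4 values are independent. Arrays of a group share animals here and the genes were chosen, so the chance rate for these groups is not known. The nondeprived layer 5 of the contralateral 4-month LGN was that array in 5 of the 12. It read 496 for ALDH1A2, 625 for TAFA1 and 51.6 for TMEM150C, where the other nondeprived arrays reached at most 55.0, 94.0 and 11.5. It read 2409 for probe set MmugDNA.38772.1.S1_at, which has no symbol, against at most 581 in the others, and 1614 for the second probe set of MED8, against at least 1957. The 73 include 11 that passed the threshold only without this array, and 3 of the 5, ALDH1A2, TAFA1 and MmugDNA.38772.1.S1_at, are among those 11, so its share of the 12 is a description that the choice of genes partly fixes. The cause was not tested.

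The nondeprived layer 6 of the ipsilateral LGN was apart at 2 months for TCF7L2, at 34601, and for LOC699013, at 9906, and at 4 months for PPP3CB, at 3579.5. The deprived layer 6 of the contralateral 2-month LGN was apart for SUN1, at 6760.5, and for VAMP1, at 1674. The deprived layer 6 of the contralateral 4-month LGN gave 20305 for CNP, a myelin enzyme, below the other deprived arrays. The deprived layer 5 of the ipsilateral 2-month LGN gave 20198 for the chaperone HSPA8, above them.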

How the results depend on the processing

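The count of transcripts past the threshold in layers 5 and 6, 7 with all arrays, depended on most choices. It was 4 after quantile normalization, 2 with the arrays at the same median, 2 without the filter on low signals, 1 with the replicate block drawn for each LGN and layer pair, 1 with the layer number as a covariate and 1 with the GAPDH ratio as a covariate, an alternative chosen after seeing the data. It was 0 with signals under 50 set to 50, without the trend, with the 8 arrays of layers 5 and 6 alone, with no replicate block and with either animal alone. Leaving out 1 array gave 0 to 28, the 28 without the nondeprived layer 5 of the contralateral 4-month LGN and 0 without any other nondeprived array. The fold rule, at 1476, gave 794 with 16 added to the signals, 404 with signals under 50 set to 50 and 410 with a mean of 100 or more. It gave 3031 without the filter, 941 at a mean fold of 2 and 3545 with 3 of 4 LGNs. It gave 4704 at 4 months alone, 5522 at 2 months alone and 2600 to 3023 with 1 array left out. In these last fits whole LGNs dropped out and only the remaining ones had to agree. That is an easier rule than 4 of 4, so these counts are not comparable with 1476. The difference between layer pairs stayed at 0 in all alternatives (0 to 0 with 1 array left out), and that between months at 0 except for 1 probe set in the 8 arrays alone, with 0 to 1 when 1 array was left out. Of 1604 fold changes of named genes under alternatives, 1474 kept direction and side of the threshold, and 117 lost and 12 gained the threshold. Most of the 1474 belong to genes that did not pass with all arrays, and only those that passed could lose the threshold. Over 22 alternatives each, FGF11 kept its call in 13, SUN1 and ASAH2 in 6 each, STMN4 and EPN1 in 4 each and AP1S2 in 1. The log2 fold change of MBP turned to -0.0195 after quantile normalization. Of 544 list medians 35 moved by more than their spread over LGNs. Causes were not tested. Signals under 100 limit what dim genes can show.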

Other observations

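A group of 32 probe sets, chosen by the study as higher in deprived layers on the magnocellular arrays of the same 4 LGNs, could be read in layers 5 and 6. The magnocellular arrays are other arrays than those described here, but they come from the same animals. In the outer parvocellular layers 30 of the 32 were positive, beside 53.0% of all probe sets. Of the 32, 17 were positive in all 4 LGNs (18.4% of all probe sets had 1 direction, either one, in all 4). In 8 the deprived values were higher without overlap between the groups (2.19% of all). SUN1 was the only one past the threshold (0.0186% of all, in either direction), and 7 passed without the nondeprived layer 5 of the contralateral 4-month LGN (0.0744% of all, in either direction). The median log2 fold change was 0.64, and 0.60 in layers 3 and 4, beside 0.03 over all probe sets.

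COL13A1, a transmembrane collagen, belongs to this group, with 2789.6, 2439, 1333 and 1142 in deprived layers, against 1778, 1363, 758 and 664 in nondeprived layers. The deprived layer was higher by a like ratio in each LGN, while both layers of the animal of 2 months were brighter than the matching layers of the animal of 4 months, so the groups overlapped (0.77, SE 0.18, limma adjusted p = 0.196). The probe set MmugDNA.2791.1.S1_at, which the study assigns to PAPPA, a metalloproteinase, gave 1052, 934, 1343 and 1073 in deprived layers, against 550.1, 311, 539 and 799 in nondeprived layers. It did not overlap between the groups, at 1.07 (SE 0.18) on the log2 scale, with an adjusted p of 0.0666 with all arrays and 0.0360 without that array (limma).

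Perineuronal net and matrix genes had no common direction, with 13 positive and 14 negative of 27. ACAN, the core protein of aggrecan, gave 1507, 2714, 1189 and 1908 in deprived layers, against 838, 1457, 756 and 1149.6 in nondeprived layers, higher in each LGN (0.78, SE 0.26, limma adjusted p = 0.368). HAPLN4, a link protein of the same nets, gave 1880.0, 3313, 1274 and 2083 in deprived layers, against 3433.9, 3350.0, 3073 and 2088 in nondeprived layers, lower in each LGN (-0.54, SE 0.23, limma adjusted p = 0.485). Both overlapped between the groups.

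BIRC2, an inhibitor of apoptosis, had the bright and narrow values 14370.2, 12529, 15714 and 13241 in deprived layers, against 9982, 10486, 10565 and 9781 in nondeprived layers, without overlap (0.45, SE 0.12, limma adjusted p = 0.259). Of 14 apoptosis regulators 10 were positive, with a median of 0.16, beside -0.10 in layers 3 and 4, a difference that was not tested.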
